A study of Mus musculus with 24 samples.

Results

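The genes described here are the 43 members of the core autophagy machinery and its cargo receptors, chosen by symbol from the 33019 genes in the counts of mouse liver RNA. They comprise 5 genes of the initiation complex, 7 of the lipid kinase complex, 6 of membrane supply, 10 of the conjugation systems, 5 of the ATG8 family, 6 of fusion with the lysosome and 4 cargo receptors other than p62. RNA was sequenced in 24 liver libraries, 4 for each of 6 genotypes, all from C57BL/6J mice at 2 months of age. The groups were wild type (WT), a hepatic deletion of Atg5 (Atg5 KO), a hepatic deletion of Tsc1 (TSC1 KO), both deletions (DKO), both with a further hepatic deletion of p62 (p62 TKO), and both with a further hepatic deletion of Nrf2 (Nrf2 TKO). DKO, p62 TKO and Nrf2 TKO livers therefore all lacked Atg5 and Tsc1 by label. What promoter drove the deletions, and the sex of the mice, the sources used here do not give. Nor was it stated that each library came from a separate mouse, so the p-values cover only the spread among the libraries, which may be technical.

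Autophagy encloses cytoplasm in a double membrane, the autophagosome, which then fuses with a lysosome. The ULK kinase complex starts the process, and a lipid kinase complex built on PIK3C3 marks the site with a phosphoinositide that WIPI proteins read. ATG9A vesicles and the lipid-transfer protein ATG2 supply membrane. A pair of ubiquitin-like conjugation systems, of which ATG5 is an indispensable part, then attaches ATG8 proteins (the LC3 and GABARAP families) to the membrane. Cargo receptors bind ATG8 and the cargo at once, and SNARE proteins carry out the fusion. TSC1 restrains the kinase mTORC1, which inhibits the ULK complex and holds the lysosomal transcription factors TFEB and TFE3 in the cytoplasm. In liver the pathway clears p62-containing aggregates and limits the release of NRF2 from its inhibitor KEAP1.

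Levels are CPM, counts scaled to a common library total that TMM has adjusted, with ± giving the SD of 4 libraries, and libraries are listed in the order of replicates 1 to 4. Differences are log2 fold changes with ± giving the standard error. A gene was called at an adjusted p under 0.05 by edgeR (quasi-likelihood test, Benjamini-Hochberg adjustment) over the 15851 genes tested, and "rose" and "fell" are used only of called genes. All 43 members passed the filter on low counts. The lowest member was Atg10, with 34 to 114 counts in a library.

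Total counts per library ran from 10494080 to 13057467. The scaling matters more than the depth in these livers, because the TMM factors ranged from 0.716 to 0.812 for WT and from 1.49 to 1.55 for DKO. Scaled by total counts alone, all genes tested had a median that moved from 0.00 to 0.37 log2 in Atg5 KO versus WT, from 0.01 to 0.14 in TSC1 KO versus WT, and from 0.08 to 1.07 in DKO versus WT. It moved from 0.04 to 0.66 in DKO versus Atg5 KO, from 0.10 to 0.96 in DKO versus TSC1 KO, from -0.02 to -0.48 in p62 TKO versus DKO and from -0.05 to -0.71 in Nrf2 TKO versus DKO. Changes below are therefore relative to the TMM-scaled median of all genes, and the split with total counts alone stands beside each count.

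Markers of liver cell types moved with the genotypes. The summed level of 20 hepatocyte genes was 18484 to 25389 CPM in DKO, against 115985 to 137590 in WT, 111347 to 124986 in TSC1 KO, 64740 to 144668 in Atg5 KO, 91636 to 129762 in Nrf2 TKO and 51600 to 71321 in p62 TKO, and all 20 fell in DKO versus WT. That of 18 duct genes was 7593 to 11102 CPM in DKO, against 172 to 201 in WT, 706 to 1132 in TSC1 KO, 604 to 1344 in Atg5 KO, 1821 to 3217 in Nrf2 TKO and 2712 to 3953 in p62 TKO, with 17 higher and 1 lower in DKO versus WT. Of 16 macrophage genes 12 rose in Atg5 KO, 9 fell in TSC1 KO, and 11 rose and 4 fell in DKO, against WT; their sums were 528 to 933.5 CPM in DKO, 216 to 356 in WT, 93.9 to 169 in TSC1 KO, 414 to 972 in Atg5 KO, 235.5 to 364 in Nrf2 TKO and 712 to 1076 in p62 TKO. Of 15 stellate and fibroblast genes 12 rose in Atg5 KO, none was called in TSC1 KO (0 by edgeR and by DESeq2, 4 at an unadjusted p under 0.05), and 10 rose and 2 fell in DKO against WT. None of the markers in these 4 lists was at 0 in every library of a group. Of 10 endothelial genes 3 rose and 3 fell in DKO versus WT, of 12 lymphocyte genes tested 8 rose, and of 8 neutrophil genes tested 1 rose; the neutrophil gene Ly6g was at 0 in every WT and TSC1 KO library. Their part in the results on autophagy genes was not tested. In whole liver, fewer cells of a type and less RNA per cell cannot be told apart.

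The targeted genes were looked at first. Atg5, itself a member, is described with the conjugation genes: its gene-level count did not fall in Atg5 KO, and no source used here names the deleted exons, so this count does not check the deletion. Tsc1 (the subunit gene of the TSC complex) stood at 35.1 ± 1.53 CPM in WT and 30.98 ± 1.99 in TSC1 KO, with ranges of 33.1 to 36.7 and 29.1 to 33.8, and was not called (-0.18 ± 0.19, adjusted p = 0.56). In DKO Tsc1 stood at 36.6 ± 12.1 CPM, not below WT, so its count does not check the Tsc1 deletion either. It fell in p62 TKO versus DKO (-0.71 ± 0.19, adjusted p = 0.0042, and -0.76, adjusted p = 0.0066 without p62 TKO replicate 4), at 19.5 to 24.7 against 24.9 to 53.1 CPM. Nfe2l2, which encodes NRF2, stood at 11.8, 17.7, 8.72 and 8.69 CPM in Nrf2 TKO against 99.9, 97.3, 92.8 and 162 in DKO, without overlap (-3.26 ± 0.21, adjusted p = 8.3e-11). Sqstm1, which encodes p62, stood at 249.2, 439, 363 and 774 CPM in p62 TKO, against 729 to 1063 in DKO and 508 to 691 in WT. Replicate 4 of the group labelled p62 TKO was thus above every WT library and inside the DKO range, against its label, and tests on that group are given with and without it. Sqstm1 was lower in the libraries labelled p62 TKO than in DKO (-1.07 ± 0.25, adjusted p = 0.0015, and -1.45, adjusted p = 3.5e-05 without replicate 4).

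Promoter sequences of 4 members are shown because these genes carry the clearest differences below: Atg5 and Gabarapl1 rose most in TSC1 KO, Atg3 fell most and Calcoco1 rose most in DKO versus WT. They are from RefSeq on GRCm38.p6, read 5′ to 3′ in the direction of the gene, and lie within the 250 bases before its RefSeq start. They were shortened where an exon of a protein-coding gene lay, that of the gene itself included. The stretches of Gabarapl1 and Atg3 thus end 33 and 45 bases before the RefSeq start. Distances below are from that start, which can differ from the gene start given later. Capitals mark CACGTG, a palindrome known as an E-box core and bound by TFEB and many other factors of its class.
Atg5 (chr10:44268089-44268338, plus strand): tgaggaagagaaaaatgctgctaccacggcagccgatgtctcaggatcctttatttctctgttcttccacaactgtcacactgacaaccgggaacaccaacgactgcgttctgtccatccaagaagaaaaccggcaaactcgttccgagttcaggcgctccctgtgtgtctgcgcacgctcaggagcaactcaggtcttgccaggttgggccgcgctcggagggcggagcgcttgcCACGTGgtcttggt
Gabarapl1 (chr6:129532942-129533159, plus strand): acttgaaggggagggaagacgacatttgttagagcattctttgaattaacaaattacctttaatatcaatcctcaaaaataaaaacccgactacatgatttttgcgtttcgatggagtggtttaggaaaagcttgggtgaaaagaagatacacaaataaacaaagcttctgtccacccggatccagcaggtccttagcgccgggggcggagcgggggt
Atg3 (chr16:45158707-45158784, plus strand): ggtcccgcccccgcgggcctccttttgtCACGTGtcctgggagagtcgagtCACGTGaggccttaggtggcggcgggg
Calcoco1 (chr15:102722179-102722428, minus strand): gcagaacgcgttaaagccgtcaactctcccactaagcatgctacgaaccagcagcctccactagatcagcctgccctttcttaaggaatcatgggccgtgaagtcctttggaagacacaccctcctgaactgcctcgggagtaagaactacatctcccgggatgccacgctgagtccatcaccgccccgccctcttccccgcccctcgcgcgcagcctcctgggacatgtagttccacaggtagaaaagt
A RefSeq promoter was matched for 36 of the 43 members, with 40 promoters among them. Motif shares of members count genes with a match in any of their promoters, whereas shares of all count single promoters. CACGTG was found in the 250 bases before the start of 4 of them, or 11.1%, against 6.02% of all 32851 promoters. The 4 were Atg3 with matches 94 and 71 bases before the start, Atg5 at 14, Atg7 at 132 and Nrbf2 at 208. The longer TCACGTGA, which contains it, was found in Atg3 and Nrbf2, and in 0.785% of all promoters. A still longer form, with a further base at each end, was in 0 of the 36 and in 0.24% of all promoters. Promoters of members were also richer in G and C, with a median of 58.2% against 52.4% for all. The part of base content in the shares of CACGTG was not tested. TGACNNNGC, the core of the antioxidant response element that NRF2 binds, was looked for on both strands and found in Atg13, Nrbf2, Tax1bp1 and Ulk2, 11.1% of the members matched against 10.2% of all promoters. GTAAACA, a FOXO site, was in none of the 36 and in 3.17% of all. The motifs were chosen after the expression values were known, and a match describes letters, not a bound site.

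Per kilobase of exon, the highest levels in WT were those of the ATG8 genes Gabarap at 185 CPM per kb and Gabarapl1 at 166. The SNARE gene Vamp8 at 70.1, the ATG8 gene Map1lc3a at 45.7 and the receptor gene Nbr1 at 45.1 came next, and the lowest was Tecpr1, a lysosomal tether gene, at 1.43. In TSC1 KO, Gabarapl1 was first, at 549 CPM per kb. It was also first in DKO at 201, in p62 TKO at 291 and in Nrf2 TKO at 347. These are levels per length, and all later levels are CPM per gene.

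**Figure D1:**
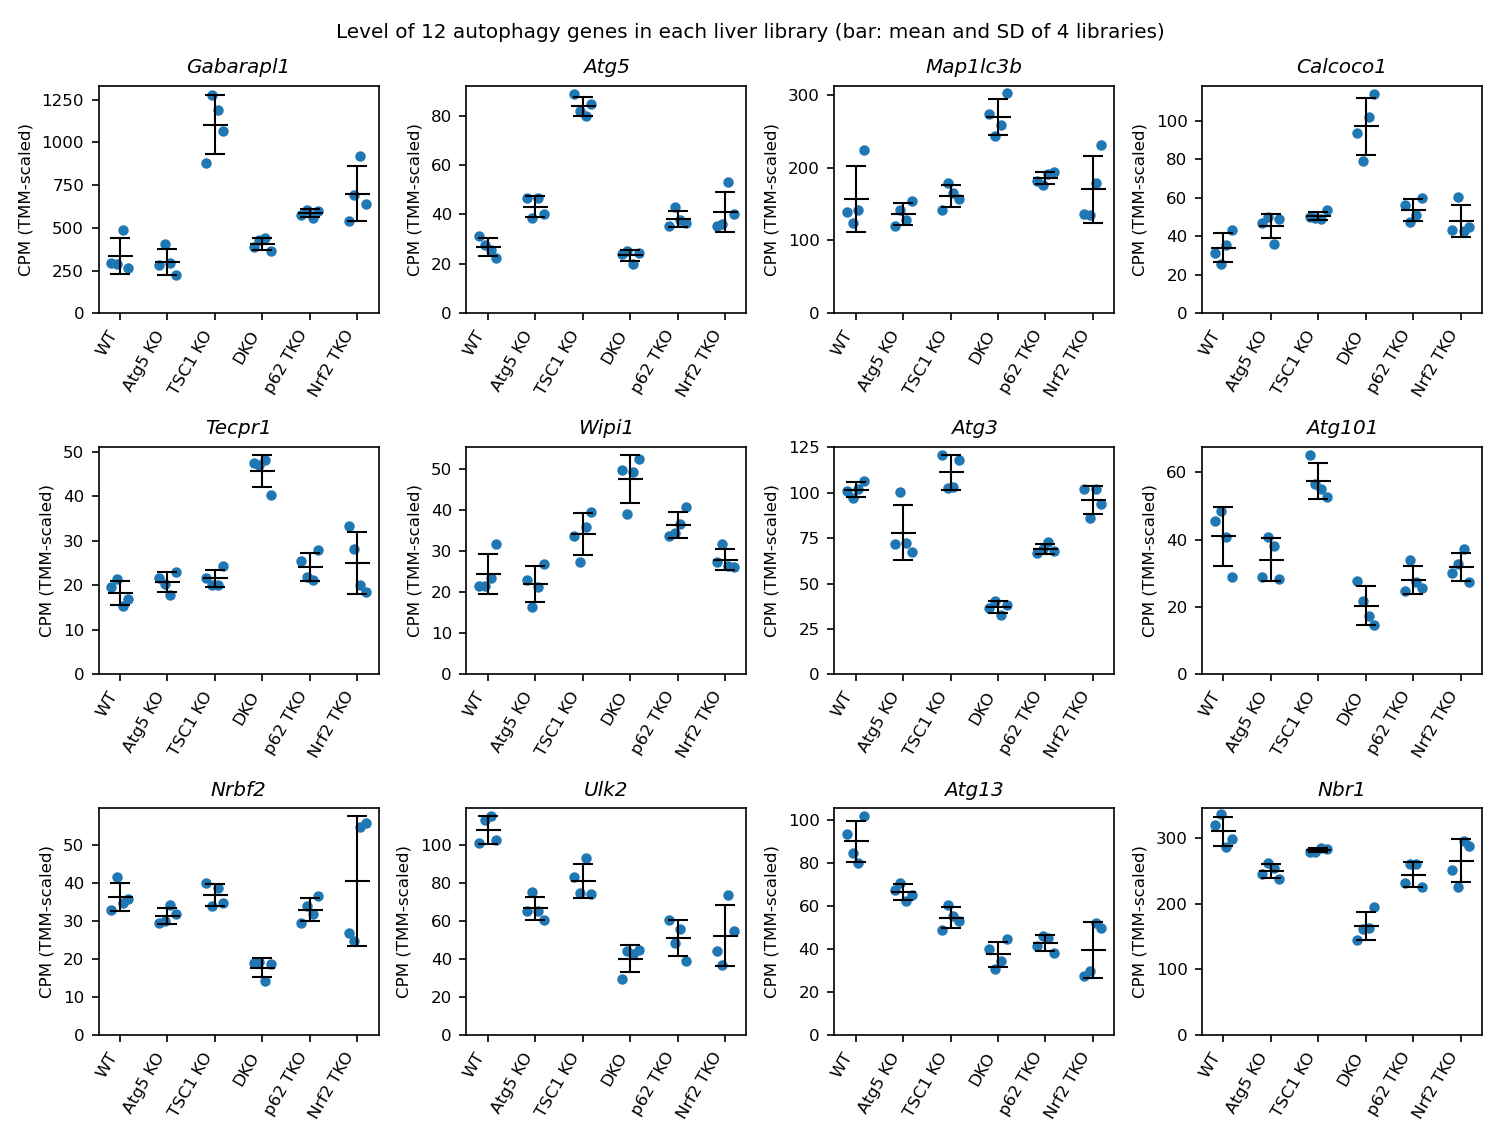
Level in CPM (vertical axis, from 0) of leading autophagy genes in each of the 24 liver libraries (points), by genotype, with the mean and SD of 4 libraries. Gabarapl1 and Atg5 stand highest in TSC1 KO, whereas Calcoco1, Tecpr1 and Map1lc3b stand highest in DKO and Atg3 lowest there.

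The effect of deleting Atg5 alone was mostly downward and small. In Atg5 KO versus WT 13 members fell and 3 rose (Atg5, the SNARE gene Snap29 and the receptor gene Calcoco1), against 11.3% of all genes tested lower and 18.6% higher. The members' changes ran from -0.73 to 0.68 log2 with a median of -0.20, against 0.00 for all genes. With total counts alone in edgeR 13 members were higher and 0 lower (2 lower at an unadjusted p under 0.05), against 36.0% and 2.21% of all genes. Of the 13 that fell, 6 kept a sign below 0 under all 3 scalings (TMM, DESeq2's size factors and total counts). The initiation genes held 3 of the 13 (Ulk2, Atg13 and Rb1cc1) and the conjugation genes 4 (Atg3, Atg4d, Atg7 and Atg16l1), while 0 of the 5 ATG8 genes was called by edgeR or DESeq2 (1 at an unadjusted p under 0.05). The count of 13 changed with single libraries: it was 5 without WT replicate 4 and 8 without Atg5 KO replicate 1 or 3. Lower calls over all genes tested also went down, from 1794 to 1152, 1106 and 1206 in turn. The 3 that rose became 1 without WT replicate 2 or Atg5 KO replicate 1 or 4. Higher calls over all genes went from 2944 to 2611, 2476 and 2502 there. Atg13 lost its call without any one of 6 of the 8 libraries and Atg7 without any one of 5, whereas Ulk2, Becn1, Atg4d, Atg16l1 and Atg3 kept theirs without any one library.

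Deleting Tsc1 alone raised a short list. In TSC1 KO versus WT 8 members rose (Atg5, Gabarapl1, Plekhm1, Atg7, Calcoco1, Wipi1, Pik3c3 and Vamp8) and 3 fell (Atg13, Atg9a and Atg4d), against 8.79% of all genes higher and 7.6% lower. The range was -0.78 to 1.72 log2, and the median of the members was 0.03 against 0.01 for all genes. Total counts alone gave 10 higher and 1 lower, against 11.7% and 3.96% of all genes, and all 11 calls kept their sign. Calls of Atg5, Atg7, Gabarapl1, Plekhm1 and Atg13 held in every alternative setting run and without any one library. The 8 became 4 without WT replicate 2 and 5 without WT replicate 3 or TSC1 KO replicate 1. Higher calls over all genes tested went from 1393 to 956, 1151 and 1125 in turn. The 3 became 1 without WT replicate 1 or TSC1 KO replicate 1, 2 or 4. Lower calls over all genes went from 1205 to 647, 836, 766 and 855 there.

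In DKO versus WT 24 members fell and 7 rose, against 32.3% of all genes lower and 37.1% higher. All 5 initiation genes fell, as did 3 of the 4 receptor genes and 6 of the 10 conjugation genes. Calcoco1, Tecpr1, Wipi1, Map1lc3b, Plekhm1, Ambra1 and Atg2a rose. The changes ran from -1.46 to 1.51 log2, with a median of -0.39 against 0.08 for all genes. Total counts alone gave 29 higher and 2 lower (Ulk2 and Atg3), against 70.3% and 11.2% of all genes. Of the 24 that fell 8 kept a sign below 0 under all 3 scalings, so the downward direction of the other genes holds only relative to the median of all genes, whereas all 7 that rose kept their sign.

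**Figure D2:**
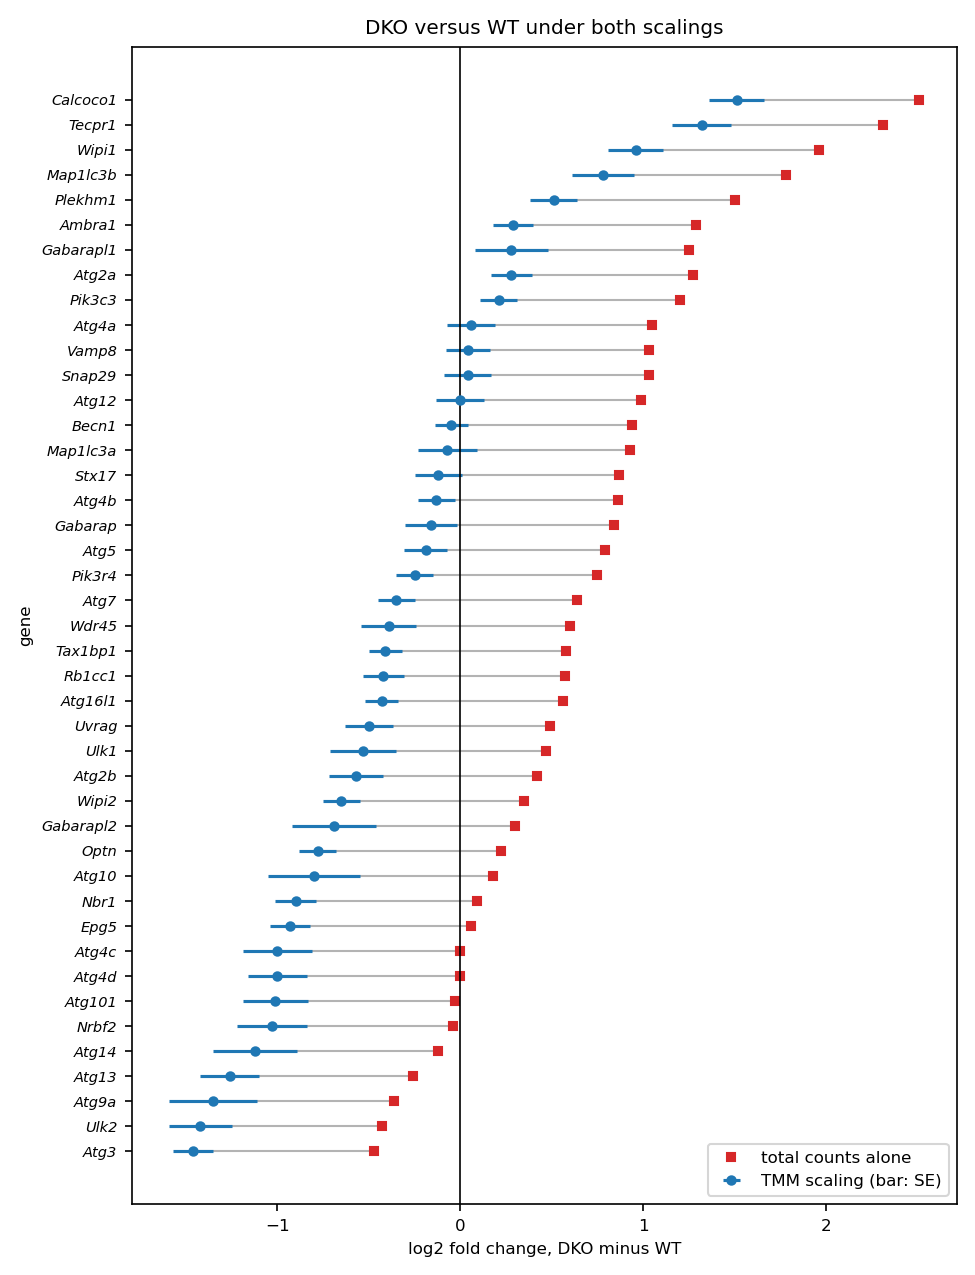
log2 fold change of each of the 43 genes in DKO versus WT (horizontal axis) with TMM scaling and with total counts alone, joined by a line for each gene. Total counts alone move the whole set to the right, and Atg3 and Ulk2 stay below 0 while Calcoco1, Tecpr1 and Wipi1 stay above it.

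When Tsc1 was deleted on top of Atg5 (DKO versus Atg5 KO), 17 members fell and 6 rose (Tecpr1, Wipi1, Calcoco1, Map1lc3b, Becn1 and Ambra1), against 27.3% and 29.2% of all genes. The range was -1.08 to 1.14 log2 and the median -0.12, against 0.04 for all genes. Total counts alone gave 26 higher and 1 lower, against 57.7% and 12.4%, and 9 of the 17 kept their sign below 0. When Atg5 was deleted on top of Tsc1 (DKO versus TSC1 KO), 26 fell and 5 rose (Tecpr1, Calcoco1, Map1lc3b, Ambra1 and Wipi1), against 30.0% and 36.6% of all genes. The range was -1.84 to 1.08 log2 and the median -0.49, against 0.10 for all genes. Total counts alone gave 26 higher and 4 lower (Atg5, Atg3, Gabarapl1 and Atg101), against 67.9% and 12%, and 7 of the 26 kept their sign.

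A pair of comparisons for each deletion shares no library, so its effect can be set side by side with and without the other deletion. For the Tsc1 deletion, Wipi1 and Calcoco1 rose in both TSC1 KO versus WT and DKO versus Atg5 KO, which is 25.0% of the 8 that rose in the first and 33.3% of the 6 in the second; over all genes tested the shares were 59.1% and 17.8%. Atg13 and Atg9a fell in both, which is 66.7% of the 3 that fell in the first and 11.8% of the 17 in the second. Over all genes tested these shares were 54.5% and 15.2%. Atg5 rose in the first and fell in the second. With total counts alone Atg13, Atg9a and Atg5 kept these signs. For the Atg5 deletion, 11 members fell in both Atg5 KO versus WT and DKO versus TSC1 KO: Ulk2, Atg13, Rb1cc1, Wipi2, Atg2b, Atg3, Atg4d, Atg7, Atg16l1, Nbr1 and Optn. They make up 84.6% of the 13 and 42.3% of the 26, against 74.6% and 28.1% over all genes tested, but only Ulk2 and Atg3 of them were below 0 in both comparisons with total counts alone. Calcoco1 rose in both, and Atg5 rose in the first and fell in the second.

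**Figure D3:**
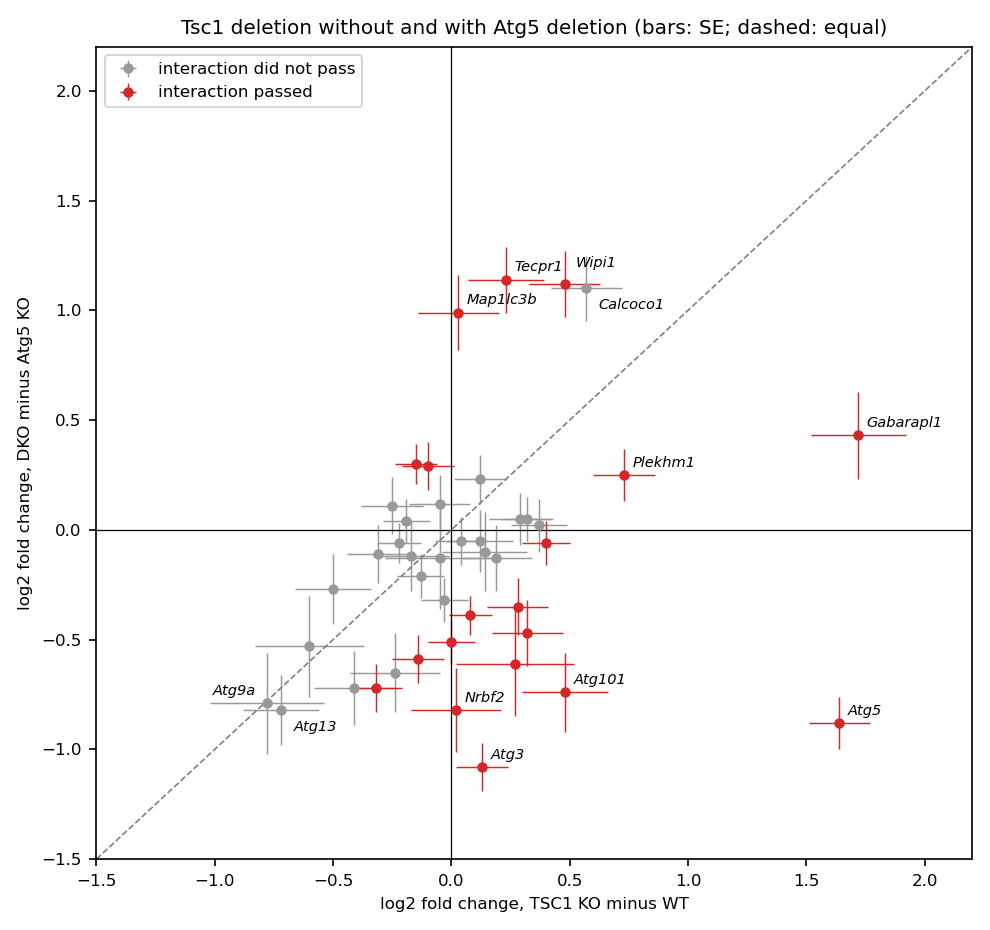
log2 fold change of the 43 genes on Tsc1 deletion with Atg5 intact (TSC1 KO minus WT, horizontal axis) and with Atg5 deleted (DKO minus Atg5 KO, vertical axis), with SE bars and a dashed line where both are equal. Gabarapl1 and Atg5 lie far below the line, at 1.72 and 1.64 on the horizontal axis, and Tecpr1 and Map1lc3b lie above it.

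The test of whether one deletion's effect depended on the other (the interaction, the DKO minus TSC1 KO difference less the Atg5 KO minus WT difference) called 14 members lower and 5 higher, against 19.3% and 15.5% of all genes. A lower value means that the level in DKO was below the sum of the single effects. The calls below 0 were led by Atg5 (-2.52 ± 0.18, adjusted p = 5.4e-09), the conjugating enzyme gene Atg3 (-1.21 ± 0.15, adjusted p = 2.7e-06), Gabarapl1 (-1.3 ± 0.28, adjusted p = 0.00098) and the ULK complex gene Atg101 (-1.22 ± 0.25, adjusted p = 0.00063). Those above 0 were led by Tecpr1 (0.91 ± 0.22, adjusted p = 0.0024), Map1lc3b (0.95 ± 0.24, adjusted p = 0.0033) and Becn1 (0.45 ± 0.12, adjusted p = 0.0063). These 7 held in every alternative run and without any one library. The call of Ambra1 above 0 was lost in 20 of 22 alternatives, those of Atg10 and Epg5 below 0 in 12 and 11. Those above 0 became 3 without WT replicate 4, Atg5 KO replicate 2, TSC1 KO replicate 1 or 2, or DKO replicate 4. Higher calls over all genes tested went from 2451 to 2010, 1981, 1874, 2025 and 2009 in turn. Across the members the median was -0.24 against 0.03 for all genes, and total counts alone gave 14 higher and 4 lower, against 35.4% and 10.7%.

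The further deletions of p62 and Nrf2 were compared with DKO. In p62 TKO versus DKO 12 members rose and 6 fell (Tecpr1, Calcoco1, Map1lc3b, Ambra1, Atg2a and Wipi1), against 22.3% and 21.5% of all genes, and without replicate 4 of p62 TKO these counts were 13 and 5. Over all genes tested 3308 were higher and 3141 lower there, against 3533 and 3413 with all libraries. Without replicate 2 of p62 TKO the 6 became 2, while lower calls over all genes tested went from 3413 to 2705. In Nrf2 TKO versus DKO 14 rose and 9 fell (Calcoco1, Wipi1, Tecpr1, Becn1, Map1lc3a, Map1lc3b, Atg2a, Atg12 and Ambra1), against 26.7% and 29.2% of all genes. The medians of the members were 0.19 and 0.24 log2, against -0.02 and -0.05 for all genes. Of the rises, 9 of the 12 in p62 TKO and 7 of the 14 in Nrf2 TKO kept their sign under every scaling run. The direction of the remaining rises depends on the scaling. Most calls of a rise were lost with total counts alone. That scaling gave 2 higher and 20 lower for p62 TKO, against 10.3% and 47.6% of all genes. For Nrf2 TKO it gave 2 higher and 28 lower, against 11.5% and 59.8%. Only Atg3 and Nrbf2 were called higher than DKO with total counts alone in each. Both comparisons use the same 4 DKO libraries, and each of them also shares those libraries with the comparisons of DKO above, so their likeness is not a separate observation.

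Between the triple knockouts themselves, members were called at shares near those of all genes tested (9.3% higher and 7.0% lower). In p62 TKO versus Nrf2 TKO 4 rose (Becn1, Atg12, Map1lc3a and Plekhm1) and 3 fell (Atg3, Atg10 and Stx17), against 10.4% and 7.11% of all genes. Total counts alone gave 9 higher and 1 lower, against 18.9% and 3.46%. Without replicate 4 of p62 TKO 0 were higher by edgeR (5 at an unadjusted p under 0.05) and 1, Atg3, was lower. Over all genes tested 1375 were higher and 780 lower there, against 1649 and 1127 with all libraries. At that setting the values were 0.5, adjusted p = 0.064 for Map1lc3a, 0.42, adjusted p = 0.051 for Atg12, 0.28, adjusted p = 0.058 for Becn1, 0.36, adjusted p = 0.059 for Plekhm1 and -0.46, adjusted p = 0.013 for Atg3. The 4 higher calls also became 2 or fewer without Nrf2 TKO replicate 1, 2 or 4 or p62 TKO replicate 2, and the lower calls 1 without p62 TKO replicate 1. Over all genes the higher calls were 1203, 1672, 1528 and 1411 in turn, and the lower calls 749. The call of Becn1 was lost in 11 of 14 alternatives, among them the replicate block and each library left out, and that of Stx17 in 9, among them the block and DESeq2's size factors. Atg3 kept its call in all 14.

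**Figure D4:**
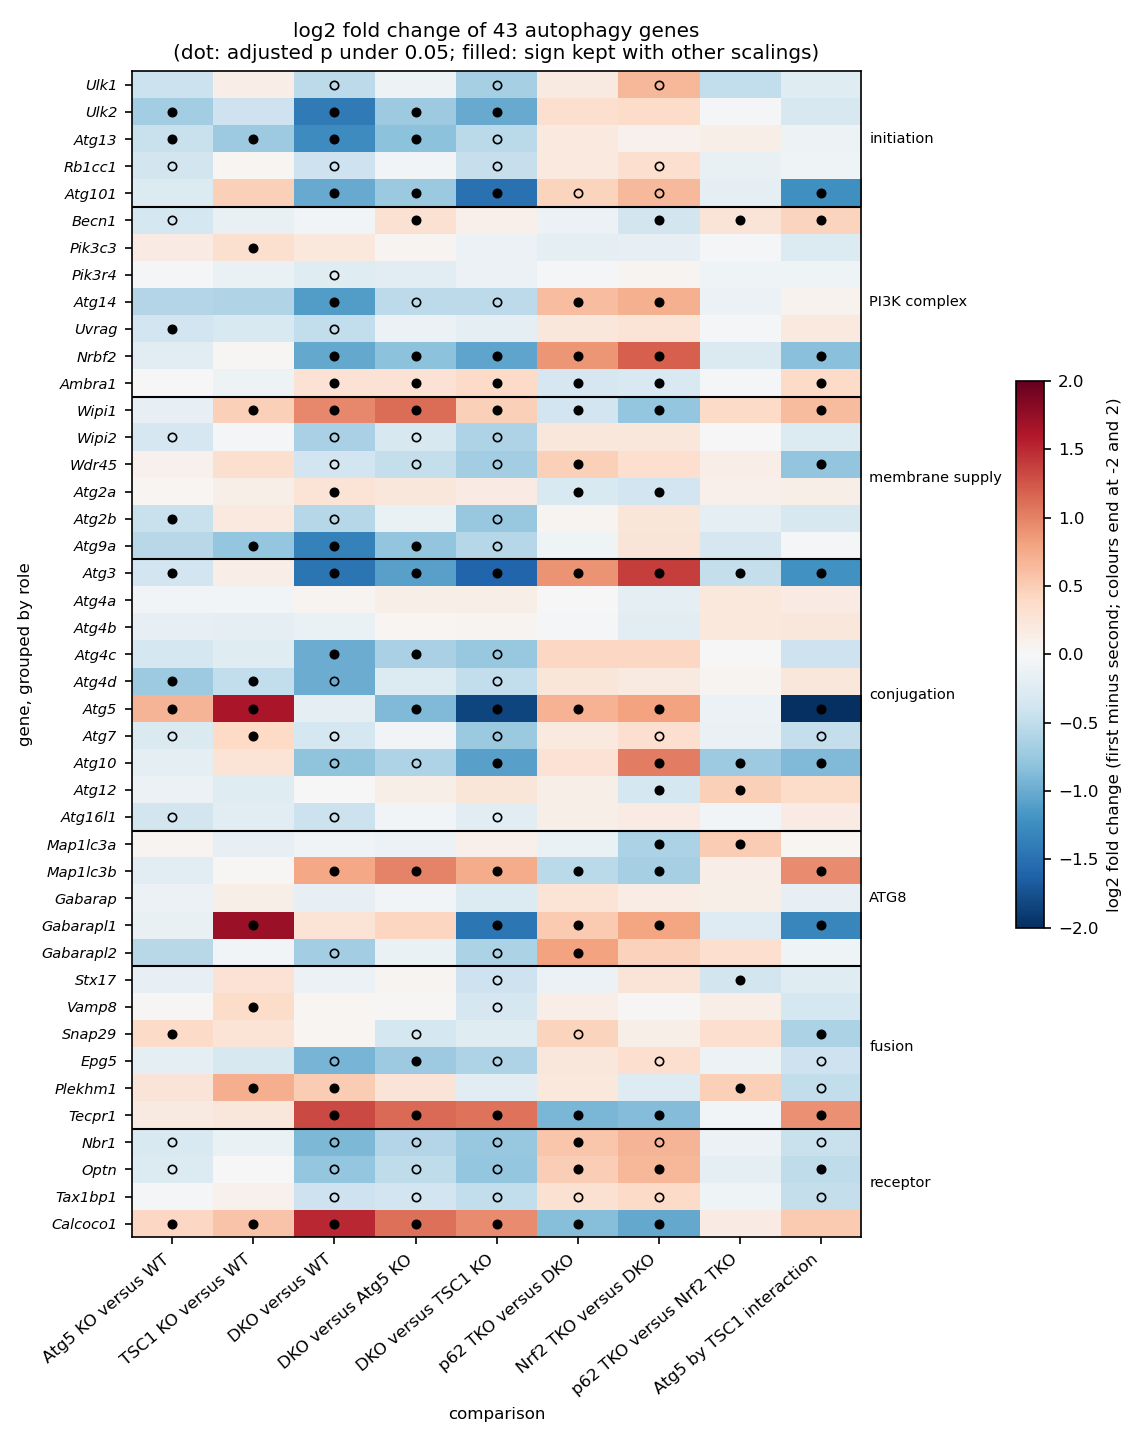
log2 fold change of the 43 genes (rows, grouped by role) in each comparison (columns), on a colour scale that ends at -2 and 2. Dots mark adjusted p under 0.05, filled where the sign held under all 3 scalings, and most open dots lie among the calls below 0 in the DKO columns.

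With TMM scaling, the initiation genes Ulk1, Ulk2, Atg13, Rb1cc1 and Atg101 had a lower mean level in DKO than in any other group. Ulk2, one of the kinase genes, stood at 101, 113, 115 and 102 CPM in WT, 65.4, 74.9, 64.98 and 60.5 in Atg5 KO and 82.8, 74.4, 92.97 and 74.3 in TSC1 KO. It stood at 29.4, 44.2, 42.6 and 44.8 in DKO, 60.5, 48.5, 55.8 and 38.8 in p62 TKO and 43.96, 36.6, 73.6 and 54.5 in Nrf2 TKO. In these TMM-scaled levels the WT libraries lay above all others, and DKO lay below both single knockouts without overlap. The differences of DKO from Atg5 KO and from TSC1 KO were called with TMM but not with total counts alone. Ulk2 fell in Atg5 KO (-0.7 ± 0.17, adjusted p = 0.0037) and in DKO against WT (-1.42 ± 0.17, adjusted p = 1.6e-07, or -0.43 on total counts). Of the initiation genes only Ulk2 had its fall in DKO versus WT called at both scalings.

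Atg13, the adaptor subunit of the ULK complex, was the initiation gene that fell in TSC1 KO. It stood at 93.4, 84.7, 79.9 and 102 CPM in WT, 48.9, 60.5, 55.4 and 52.8 in TSC1 KO, 67.2, 70.8, 62.1 and 65.2 in Atg5 KO and 40.05, 30.9, 34.4 and 44.4 in DKO. From WT down through the Atg5 KO, TSC1 KO and DKO libraries no group overlapped the next. The fall in TSC1 KO (-0.72 ± 0.16, adjusted p = 0.0037) held without any one library and at every scaling, and those in DKO versus WT (-1.26 ± 0.16, adjusted p = 3.5e-07) and DKO versus Atg5 KO (-0.82 ± 0.16, adjusted p = 0.00014) were not called with total counts alone, at -0.26 and -0.2. In Nrf2 TKO the libraries fell apart, at 27.4, 29.6, 52.01 and 49.7 CPM, and p62 TKO held 38.2 to 46.2. Neither triple knockout was called against DKO.

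Atg101, which stabilises ATG13, was not lower in TSC1 KO. It stood at 45.6, 48.5, 40.9 and 28.7 CPM in WT and 64.9, 56.4, 54.9 and 52.7 in TSC1 KO, where it was not called (0.48). In DKO it stood at 27.7, 21.8, 17.2 and 14.7, below every TSC1 KO library (-1.49 ± 0.18, adjusted p = 1.8e-07, or -0.63 with total counts alone). Ulk1, the other kinase gene, stood at 95.1 ± 28.6 CPM in WT, 104 ± 15.3 in TSC1 KO, 65.7 ± 8.54 in DKO and 105 ± 24.6 in Nrf2 TKO. Its call against WT in DKO was lost without DKO replicate 2 or WT replicate 4 (adjusted p = 0.053 to 0.13).

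In the lipid kinase complex, the catalytic subunit gene Pik3c3 and its regulatory partner Pik3r4 moved little. Pik3c3 lay between 20.1 CPM in WT and 25.1 in TSC1 KO by group mean, and Pik3r4 between 22.8 in p62 TKO and 27.7 in WT. The rise of Pik3c3 in TSC1 KO (0.32 ± 0.11, adjusted p = 0.04) was called only without WT replicate 4 or TSC1 KO replicate 4 when a library was left out, and otherwise had adjusted p from 0.067 to 0.15. The larger differences were in subunits that define which form of the complex is made. Nrbf2, a subunit of the ATG14 form, stood at 33.01, 41.7, 34.9 and 35.9 CPM in WT and 18.97, 19.4, 14.2 and 18.6 in DKO, and all DKO libraries were below all others. It fell in DKO versus WT (-1.03 ± 0.19, adjusted p = 5.8e-05), versus Atg5 KO (-0.82 ± 0.19, adjusted p = 0.00089) and versus TSC1 KO (-1.05 ± 0.19, adjusted p = 4.9e-05), while total counts alone gave -0.04, -0.2 and -0.19, not called.

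Nrbf2 was also one of the few members that rose in each triple knockout versus DKO at both scalings. It stood at 29.4, 34.2, 32.1 and 36.8 CPM in p62 TKO (0.89 ± 0.19, adjusted p = 0.00065, and 0.84, adjusted p = 0.0027 without replicate 4). In Nrf2 TKO it stood at 26.9, 24.8, 54.7 and 56.01 (1.19 ± 0.19, adjusted p = 1.8e-05), so replicates 3 and 4 of that group were above every WT library and replicates 1 and 2 below. Its promoter holds CACGTG and TGACNNNGC. Atg14, which directs the complex to the site of autophagosome formation, stood at 37.5 ± 9.104 CPM in WT and 17.3 ± 2.08 in DKO (-1.12 ± 0.23, adjusted p = 0.00014, but -0.12 and not called with total counts alone).

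Becn1, the scaffold of the complex, was not called in DKO versus WT or versus TSC1 KO, with means of 50.8 CPM in DKO and 52.7 in WT. In Atg5 KO versus WT Becn1 fell with TMM, a call lost with total counts alone. It stood at 48.2, 48.97, 56.8 and 56.6 CPM in WT, 42.1, 42.8, 41.2 and 39.2 in Atg5 KO, 53.99, 50.8, 47.9 and 50.5 in DKO and 35.8, 35.5, 43.7 and 42.1 in Nrf2 TKO. DKO lay above Atg5 KO (0.3 ± 0.09, adjusted p = 0.0051) and above Nrf2 TKO (-0.37 ± 0.09, adjusted p = 0.00084) without overlap, at both scalings. Its exons overlap those of Cntd1 on the other strand over 43.9% of their length, but Cntd1 had group means of 0.143 to 0.305 CPM. Ambra1, which binds BECN1, stood at 38.4 ± 2.42 CPM in DKO against 29.2 ± 2.77 in TSC1 KO, without overlap (0.39 ± 0.11, adjusted p = 0.0025).

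Among the membrane supply genes, the phosphoinositide readers parted. Wipi1 stood at 21.4, 21.4, 23.4 and 31.7 CPM in WT, 23.02, 16.3, 21.3 and 26.8 in Atg5 KO and 33.6, 27.3, 35.8 and 39.5 in TSC1 KO. It stood at 49.6, 39.1, 49.2 and 52.4 in DKO, 33.6, 34.2, 36.5 and 40.7 in p62 TKO and 27.3, 31.6, 26.2 and 26.2 in Nrf2 TKO. DKO was above WT, Atg5 KO and Nrf2 TKO without overlap, and overlapped TSC1 KO and p62 TKO. Wipi1 rose in DKO versus WT (0.96 ± 0.15, adjusted p = 4.8e-06) and versus Atg5 KO (1.12 ± 0.15, adjusted p = 9.8e-07) and fell in Nrf2 TKO versus DKO (-0.77 ± 0.15, adjusted p = 0.00011), at both scalings and without any one library. The rise in TSC1 KO versus WT (0.48 ± 0.15, adjusted p = 0.032) was called only without WT replicate 4 or TSC1 KO replicate 2 when a library was left out, with adjusted p from 0.061 to 0.11 otherwise. That in DKO versus TSC1 KO (0.48 ± 0.15, adjusted p = 0.0056) was lost without TSC1 KO replicate 2 (adjusted p = 0.06).

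Its relative Wipi2, which recruits the ATG16L1 complex, stood at 109.9 ± 10.9 CPM in WT, 107 ± 3.74 in TSC1 KO, 87.4 ± 1.75 in Atg5 KO and 70.2 ± 6.38 in DKO, and Wdr45, another reader, at 22.6 ± 3.96, 24.01 ± 2.78, 28.2 ± 5.12 and 17.3 ± 2.65. Both fell in DKO versus WT, but their signs turned with total counts alone, to 0.35 and 0.6. Atg9a, the scramblase of the membrane vesicles, stood at 33.9, 37.9, 28.3 and 25.8 CPM in WT, 14.9, 17.6, 21.6 and 19.4 in TSC1 KO and 9.48, 9.26, 11.5 and 19.1 in DKO. It fell in DKO against WT (-1.35 ± 0.24, adjusted p = 2.5e-05, or -0.36, not called, on total counts). Its fall in TSC1 KO (-0.78 ± 0.24, adjusted p = 0.028) was called only without WT replicate 3, WT replicate 4 or TSC1 KO replicate 3 when a library was left out, with adjusted p from 0.052 to 0.089 otherwise, and was not called with total counts alone. The lipid-transfer genes Atg2a and Atg2b differed in sign in DKO, at 71.3 ± 11.4 CPM against 58.9 ± 4.05 in WT for Atg2a, and 28.4 ± 3.48 against 42.1 ± 0.426 for Atg2b, although the fall of Atg2b turned to 0.42 with total counts alone.

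Of the conjugation genes, Atg5 had the largest differences. Atg5 (ENSMUSG00000038160, chromosome 10, 44268358 to 44364291, plus strand, GRCm38) encodes the partner of ATG12 in the enzyme that directs ATG8 attachment. It stood at 31.4, 27.7, 25.5 and 22.5 CPM in WT, 46.7, 38.6, 46.7 and 40.1 in Atg5 KO and 88.5, 81.95, 79.8 and 84.5 in TSC1 KO. It stood at 24.1, 25.1, 20.1 and 24.5 in DKO, 35.5, 42.8, 37.6 and 36.6 in p62 TKO and 35.2, 35.98, 52.98 and 39.98 in Nrf2 TKO. TSC1 KO was above all other libraries, Atg5 KO was above WT, and DKO was within or below the WT range. Atg5 was higher in Atg5 KO (0.68 ± 0.12, adjusted p = 0.00027) and in TSC1 KO (1.64 ± 0.13, adjusted p = 1.5e-08) than in WT, and lower in DKO than in TSC1 KO (-1.84 ± 0.12, adjusted p = 4.5e-11), at both scalings. It was lower in DKO than in Atg5 KO (-0.88 ± 0.12, adjusted p = 2.2e-06, or -0.26 and not called with total counts alone). In p62 TKO and Nrf2 TKO it was higher than in DKO (0.7 ± 0.12 and 0.81 ± 0.12, the former 0.72 without p62 TKO replicate 4), but these calls were lost with total counts alone, at 0.24 and 0.13. Since these are counts over a whole gene in livers labelled with an Atg5 deletion, they do not say how much intact transcript was made. Its promoter holds CACGTG 14 bases before the start.

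Atg3 (ENSMUSG00000022663, chromosome 16, 45158785 to 45188538, plus strand), the conjugating enzyme that hands ATG8 to the membrane lipid, was the member that fell most in DKO versus WT. It stood at 101, 96.9, 102 and 107 CPM in WT, 71.7, 100.5, 72.1 and 67.5 in Atg5 KO and 121, 103, 103 and 118 in TSC1 KO. It stood at 36.5, 40.3, 32.8 and 38.1 in DKO, 66.8, 69.03, 72.7 and 67.8 in p62 TKO and 102, 86.01, 102 and 93.7 in Nrf2 TKO. DKO, p62 TKO and Nrf2 TKO followed each other upward with no overlap between them. Atg3 fell in DKO versus WT (-1.46 ± 0.11, adjusted p = 8.7e-11), versus Atg5 KO (-1.08 ± 0.11, adjusted p = 2.4e-08) and versus TSC1 KO (-1.59 ± 0.11, adjusted p = 5.3e-11). It rose in p62 TKO (0.9 ± 0.11, adjusted p = 9.6e-07) and in Nrf2 TKO (1.38 ± 0.11, adjusted p = 1.1e-09) versus DKO, and was lower in p62 TKO than in Nrf2 TKO (-0.47 ± 0.11, adjusted p = 0.0039). All 6 of these calls held at both scalings and without any one library, p62 TKO replicate 4 included (0.91, adjusted p = 4e-06 against DKO). The levels of Atg3 across the groups followed the order of the summed hepatocyte markers in DKO, p62 TKO and Nrf2 TKO, and their part in it was not tested. In the promoter shown, Atg3 is the member with 2 CACGTG matches.

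Atg7, the activating enzyme of both conjugation systems, stood at 62.7, 62.7, 64.7 and 62.4 CPM in WT, 89.7, 77.97, 79.05 and 87.6 in TSC1 KO, 50.1, 52.4, 56.8 and 47.7 in Atg5 KO and 52.7, 48.3, 50.5 and 46.8 in DKO. TSC1 KO was above the other 3 groups without overlap. It rose in TSC1 KO versus WT at every scaling (0.4 ± 0.1, adjusted p = 0.0062). The difference of DKO from WT was -0.35 with TMM and 0.64 with total counts alone, so its sign depends on the scaling.

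Atg10, which conjugates ATG12 to ATG5, and Atg12 and Atg16l1, the partners of ATG5, had no call against WT in TSC1 KO. Atg10 was the scarcest member, at 5.27 ± 0.938 CPM in WT, 3.02 ± 0.617 in DKO and 6.09 ± 1.72 in Nrf2 TKO. Atg12 stood at 41.5 ± 1.897 CPM in WT, 41.3 ± 1.503 in DKO and 32.4 ± 8.26 in Nrf2 TKO. Of the 4 ATG4 proteases, which trim ATG8 and release it from membrane, Atg4a and Atg4b were called in 0 of the 9 comparisons by edgeR; Atg4a had 0 and Atg4b 2 at an unadjusted p under 0.05, and DESeq2 called Atg4b in 1. Atg4d stood at 35.3, 33.6, 33.03 and 51.9 CPM in WT and 21.04, 25.1, 20.1 and 26.7 in Atg5 KO, without overlap (-0.73 ± 0.16, adjusted p = 0.0013, or -0.35 and not called with total counts alone). Atg4c stood at 18.5 ± 1.25 CPM in WT and 9.27 ± 2.21 in DKO, a difference of -1.0 with TMM that was -0.0 with total counts alone.

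The 5 ATG8 genes each behaved differently. Gabarapl1 (ENSMUSG00000030161, chromosome 6, 129533160 to 129542346, plus strand) stood at 296, 287, 489.8 and 266 CPM in WT, 281, 408, 295 and 222 in Atg5 KO and 882, 1278, 1189 and 1069 in TSC1 KO. It stood at 386, 429.7, 443 and 364 in DKO, 576, 607, 556 and 601 in p62 TKO and 543, 695, 921 and 638 in Nrf2 TKO. The TSC1 KO libraries were above WT, Atg5 KO, DKO and p62 TKO without overlap, and Nrf2 TKO replicate 3 reached their lower end. Gabarapl1 rose in TSC1 KO versus WT (1.72 ± 0.2, adjusted p = 6.3e-06) and fell in DKO versus TSC1 KO (-1.45 ± 0.2, adjusted p = 1.3e-06), at both scalings and without any one library. In DKO versus WT it was not called (0.28 ± 0.2, adjusted p = 0.22). It rose in Nrf2 TKO versus DKO (0.79 ± 0.2, adjusted p = 0.0018, or 0.11 and not called with total counts alone). Its level in p62 TKO lay above DKO without overlap, a call lost without any one of DKO replicates 1 and 4 and p62 TKO replicates 2 and 4 (adjusted p = 0.057 to 0.087). The gene 1700101I11Rik overlaps 28.3% of its exon length on the other strand and had group means of 0.169 to 0.372 CPM.

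Map1lc3b (ENSMUSG00000031812, chromosome 8, 121590361 to 121598760, plus strand), which encodes the LC3B used as the common autophagosome marker, was highest in DKO instead. It stood at 139.7, 123, 142 and 224 CPM in WT, 120.2, 142, 128 and 154 in Atg5 KO and 142, 179, 165 and 157 in TSC1 KO. It stood at 274, 244, 258 and 302 in DKO, 182, 176, 191 and 194 in p62 TKO and 136, 135, 179 and 232 in Nrf2 TKO. The DKO libraries were above all others. Map1lc3b rose in DKO versus WT (0.78 ± 0.17, adjusted p = 0.0003), versus Atg5 KO (0.99 ± 0.17, adjusted p = 3.2e-05) and versus TSC1 KO (0.74 ± 0.17, adjusted p = 0.00049), at both scalings. It fell versus DKO in Nrf2 TKO (-0.66 ± 0.17, adjusted p = 0.0019) and in p62 TKO (-0.54 ± 0.17, adjusted p = 0.013, and -0.55, adjusted p = 0.022 without replicate 4), the latter call being lost without p62 TKO replicate 2 (adjusted p = 0.055). Gabarapl1 and Map1lc3b thus had opposite signs in the interaction test, given above.

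The remaining ATG8 genes moved less. Gabarap, the most abundant per length in WT, stood at 309.9, 295, 318 and 444 CPM in WT, 388, 379, 352 and 364 in TSC1 KO, 259, 327, 328 and 347 in Atg5 KO and 328, 336, 287 and 269.6 in DKO, with p62 TKO at 350.0 to 424 and Nrf2 TKO at 301 to 402. All 6 groups overlapped at least one other, and Gabarap was called in 0 of the 9 comparisons by edgeR, with 0 at an unadjusted p under 0.05, and in 1 by DESeq2. Map1lc3a stood at 43.4 to 68.8 CPM in WT, 40.4 to 56.9 in TSC1 KO, 44.7 to 66.7 in Atg5 KO, 41.7 to 53.9 in p62 TKO, 44.5 to 58.1 in DKO and 26.4 to 41.6 in Nrf2 TKO, and it fell in Nrf2 TKO versus DKO (-0.64 ± 0.16, adjusted p = 0.0015) at both scalings. Gabarapl2 stood at 31.2, 36.9, 35.99 and 45.9 CPM in WT, 31.2 to 47.8 in TSC1 KO, 21.5 to 29.1 in Atg5 KO, 25.8, 28.5, 20.8 and 17.6 in DKO, 39.5, 56.96, 32.9 and 32.1 in p62 TKO and 41.8, 21.5, 42.8 and 21.2 in Nrf2 TKO. It rose in p62 TKO versus DKO (0.8 ± 0.23, adjusted p = 0.0074, and 0.9, adjusted p = 0.006 without replicate 4), but with total counts alone the difference was 0.33 and not called. Its fall in DKO versus WT (-0.69) turned to 0.3 with total counts alone.

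Among the fusion genes, Tecpr1 (ENSMUSG00000066621, chromosome 5, 144194442 to 144223615, minus strand), which tethers autophagosomes to lysosomes, was raised in DKO. It stood at 19.5, 21.4, 15.3 and 16.9 CPM in WT, 21.6, 20.3, 17.8 and 23.02 in Atg5 KO and 21.6, 20.1, 20.1 and 24.2 in TSC1 KO. It stood at 47.5, 46.9, 47.99 and 40.2 in DKO, 25.5, 21.7, 21.1 and 27.9 in p62 TKO and 33.3, 28.2, 20.1 and 18.4 in Nrf2 TKO. Every DKO library was above every other library, while WT and the single knockouts overlapped. Tecpr1 rose in DKO versus WT (1.32 ± 0.16, adjusted p = 9.5e-08), versus Atg5 KO (1.14 ± 0.15, adjusted p = 1.2e-06) and versus TSC1 KO (1.08 ± 0.15, adjusted p = 1.6e-06). It fell versus DKO in p62 TKO (-0.92 ± 0.15, adjusted p = 3.8e-05, and -1.0, adjusted p = 6.3e-05 without replicate 4) and in Nrf2 TKO (-0.87 ± 0.15, adjusted p = 4.3e-05), and all 5 calls held at both scalings and without any one library.

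Plekhm1, an adaptor that links LC3 to the lysosomal tethering complex, rose in TSC1 KO and in DKO versus WT. It stood at 25.6, 23.3, 28.2 and 27.3 CPM in WT, 45.6, 39.9, 41.9 and 46.4 in TSC1 KO and 33.2, 39.6, 38.6 and 37.1 in DKO. With TMM every TSC1 KO library was thus above every DKO library, and both groups were above WT. The difference of DKO from TSC1 KO was not called. Plekhm1 rose in TSC1 KO (0.73 ± 0.13, adjusted p = 0.00045) and DKO (0.51 ± 0.13, adjusted p = 0.0011) versus WT at both scalings. Epg5, a tether of the same step, stood at 36.01 ± 4.31 CPM in WT, 28.9 ± 1.08 in TSC1 KO, 31.3 ± 3.95 in Atg5 KO and 18.9 ± 1.54 in DKO; its fall in DKO versus Atg5 KO (-0.72 ± 0.11, adjusted p = 6.4e-06) was -0.09 and not called with total counts alone.

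Of the SNARE genes, Stx17 and Vamp8 overlapped between WT and DKO. Stx17 stood at 34.8 ± 5.702 CPM in WT, 42.4 ± 2.76 in TSC1 KO and 31.9 ± 4.43 in DKO, and Vamp8 at 162 ± 9.56, 209 ± 40.4 and 166 ± 24.6. The call of Vamp8 in TSC1 KO (0.37 ± 0.12, adjusted p = 0.048) stood only without WT replicate 4 or TSC1 KO replicate 3 or 4 when a library was left out, with adjusted p from 0.071 to 0.25 otherwise. Snap29, which completes their bundle, stood at 35.2, 35.6, 37.9 and 32.6 CPM in WT, 46.7, 37.8, 53.8 and 46.7 in Atg5 KO, 31.02, 39.03, 36.7 and 38.8 in DKO and 47.7, 45.96, 51.7 and 53.3 in p62 TKO. Its rise in Atg5 KO (0.39 ± 0.13, adjusted p = 0.025) was called only without WT replicate 1 or 3 or Atg5 KO replicate 2 when a library was left out, with adjusted p from 0.054 to 0.1 otherwise.

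The cargo receptors split into Calcoco1 and the rest. Calcoco1 (ENSMUSG00000023055, chromosome 15, 102706777 to 102722178, minus strand), a receptor for endoplasmic reticulum and Golgi membrane, stood at 31.3, 25.6, 35.7 and 43.5 CPM in WT, 46.9, 49.8, 35.99 and 48.8 in Atg5 KO and 49.96, 49.5, 49.1 and 53.6 in TSC1 KO. It stood at 93.4, 78.8, 102 and 114 in DKO, 56.3, 47.5, 50.8 and 59.9 in p62 TKO and 43.4, 60.1, 42.7 and 44.7 in Nrf2 TKO. The DKO libraries were above all others, and TSC1 KO was above WT without overlap. Calcoco1 rose in DKO versus WT (1.51 ± 0.15, adjusted p = 6.5e-09), versus Atg5 KO (1.1 ± 0.15, adjusted p = 1.2e-06) and versus TSC1 KO (0.94 ± 0.15, adjusted p = 6.3e-06) and fell versus DKO in p62 TKO (-0.85 ± 0.15, adjusted p = 6.1e-05, and -0.91, adjusted p = 0.00012 without replicate 4) and in Nrf2 TKO (-1.02 ± 0.15, adjusted p = 3.6e-06). These 5 calls held at both scalings and without any one library. The smaller rise in TSC1 KO (0.57 ± 0.15, adjusted p = 0.011) was lost without WT replicate 2 (adjusted p = 0.056), and that in Atg5 KO (0.41 ± 0.15, adjusted p = 0.038) was called only without WT replicate 4 or Atg5 KO replicate 3 when a library was left out, with adjusted p from 0.056 to 0.15 otherwise. Its promoter shown above holds no CACGTG.

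The aggregate receptor gene Nbr1 was lowest in DKO. It stood at 319, 336, 286 and 298 CPM in WT, 279, 278, 284 and 284 in TSC1 KO, 245, 262, 254 and 238 in Atg5 KO and 144, 161, 163 and 195 in DKO. p62 TKO held 226 to 260.4 and Nrf2 TKO 226 to 296, above every DKO library. Optn and Tax1bp1, receptors of mitochondria and aggregates, had the same order of DKO below both triple knockouts, at 56.6 to 62.97 against 79.7 to 89.1 and 82.8 to 106 CPM for Optn, and 146 to 180.0 against 181 to 206 and 199 to 222 for Tax1bp1. The rises of Nbr1, Optn and Tax1bp1 in both triple knockouts versus DKO were called with TMM but not with total counts alone. All 3 fell in DKO versus WT with TMM, with differences of -0.9, -0.78 and -0.41 log2, but total counts alone turned each to 0.09, 0.22 and 0.58. The ratio of Calcoco1 to these receptors within a library does not depend on the scaling.

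Sqstm1, the p62 receptor gene left out of the 43, stood at 578 ± 78.5 CPM in WT, 738 ± 71.95 in TSC1 KO, 824 ± 142 in Atg5 KO, 961 ± 157 in DKO and 659.5 ± 211 in Nrf2 TKO. It was higher in DKO than in WT (0.73 ± 0.25, adjusted p = 0.013), a call lost without WT replicate 2 (adjusted p = 0.053). Its sign in DKO was thus that of Calcoco1 and not that of Nbr1, Optn and Tax1bp1 with TMM.

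Beyond the 43, a list of 46 further autophagy genes (regulators, organelle receptors and tethers) had 44 in the counts, all tested. Its shares called lay near those of all genes in several comparisons. In TSC1 KO versus WT 5 rose (11.4%) and 4 fell (9.09%), against 8.79% and 7.6% of all genes, led by the reticulum receptor gene Retreg1 (1.24 ± 0.23, adjusted p = 0.00079) and by Trp53inp2, a nuclear LC3 partner, which fell (-0.83 ± 0.16, adjusted p = 0.0015). In Atg5 KO versus WT 4 rose (9.09%) and 7 fell (15.9%), against 18.6% and 11.3%, and Bcl2, the BECN1-binding inhibitor of cell death, led the rises (1.59 ± 0.27, adjusted p = 0.00015). In DKO versus WT 15 rose (34.1%) and 16 fell (36.4%), against 37.1% and 32.3%, with Bcl2 (2.95 ± 0.27, adjusted p = 1.8e-09), the p53 target Trp53inp1 (2.04 ± 0.2, adjusted p = 6.6e-09) and the lysosome adaptor gene Plekhm2 (1.24 ± 0.13, adjusted p = 2.3e-08) at the head. With total counts alone the DKO split was 32 higher and 1 lower, against 70.3% and 11.2% of all genes. Against DKO 11 rose and 9 fell in p62 TKO (25.0% and 20.5%, against 22.3% and 21.5% of all genes), which became 9 and 8 without p62 TKO replicate 4. In Nrf2 TKO 9 rose and 14 fell (20.5% and 31.8%, against 26.7% and 29.2%). These splits were 2 and 26, and 1 and 32, with total counts alone.

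Of the genes of the transcription factors that drive lysosomal and autophagy genes, few were called. Of Tfeb, Tfe3 and Mitf 0 were called in TSC1 KO versus WT by edgeR or DESeq2 (1 at an unadjusted p under 0.05), with values of 0.03, -0.39 and -0.24 log2. In DKO versus WT Mitf fell (-0.34 ± 0.15, adjusted p = 0.043), a sign that turned to 0.65 with total counts alone. In DKO versus Atg5 KO Mitf (-0.36 ± 0.14, adjusted p = 0.035) and Tfe3 (-0.32 ± 0.13, adjusted p = 0.047) fell, and total counts alone turned these to 0.27 and 0.3. These are transcript levels, and the activity of the factors was not measured.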

How the data were processed

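RNA of mouse liver was sequenced as polyA-selected, stranded single-end 75 bp libraries, per the labels' protocols. The deposited values are whole-number counts per gene, with no normalization. Trimmomatic 0.36, HISAT2 2.1.0, HTSeq and the build GRCm38 are named in the submitters' processing notes; no source used here gives the annotation release or strand setting, so reads of the 12 members that overlap a counted gene on the other strand cannot be fully told apart. Of 33019 gene IDs 32953 had a symbol in GENCODE M21. Groups were taken from the labels, 4 libraries each. One edgeR 4.0.16 fit (R 4.3.3) covered all 24 libraries (filterByExpr, TMM, robust quasi-likelihood, 18 residual degrees of freedom) and gave 9 comparisons, with Benjamini-Hochberg adjustment over 15851 genes. The fit was tested on simulated data. Alternatives were DESeq2 1.42.0, edgeR with DESeq2's size factors or with total counts alone, fits without the filter on low counts, fits of only the groups compared, a replicate block, and leaving out each library. Full statistics go to at most 2 called members for each role and comparison, those of smallest adjusted p whose sign held under 3 scalings, besides Atg5 and the targeted genes, and to up to 4 called genes of the further autophagy list; other members are given by levels, signs and counts. Statistics of Map1lc3b in Nrf2 TKO versus DKO, and of Gabarapl1 and Mitf in DKO versus WT, of Mitf and Tfe3 in DKO versus Atg5 KO, and of Tsc1 in p62 TKO versus DKO, fall outside that rule and were chosen after their values were seen. The members, lists and motifs were chosen with earlier results of these data known. Coordinates are GRCm38; promoters are RefSeq, GRCm38.p6. No 2 libraries were alike within sampling noise.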

Additional observations from a re-analysis of the deposited data

Results flagged for a closer look

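Among 46 genes (the 43 members, Tsc1, Sqstm1 and Nfe2l2) in 6 groups of 4 libraries, 276 groups in all, 22 had 1 library apart from the other 3, by a gap above Dixon's critical value for 4 samples; chance alone marks about 1 in 20 groups. In WT these were Ulk1 in replicate 4 (highest, 138 CPM), Atg4d in replicate 4 (highest, 51.9 CPM), Atg7 in replicate 3 (highest, 64.7 CPM), Gabarap in replicate 4 (highest, 444 CPM), Gabarapl1 in replicate 3 (highest, 489.8 CPM) and Vamp8 in replicate 4 (highest, 176 CPM). In DKO these were Ulk2 in replicate 1 (lowest, 29.4 CPM), Rb1cc1 in replicate 4 (highest, 62.8 CPM), Nrbf2 in replicate 3 (lowest, 14.2 CPM), Atg4b in replicate 2 (lowest, 32.7 CPM), Tecpr1 in replicate 4 (lowest, 40.2 CPM) and Nfe2l2 in replicate 4 (highest, 162 CPM). In p62 TKO these were Becn1 in replicate 3 (highest, 51.1 CPM), Ambra1 in replicate 1 (highest, 33.3 CPM), Atg4d in replicate 4 (lowest, 18.8 CPM) and Gabarap in replicate 2 (highest, 424 CPM). In Atg5 KO these were Atg3 in replicate 2 (highest, 100.5 CPM), Atg16l1 in replicate 2 (highest, 40.3 CPM) and Tsc1 in replicate 2 (highest, 45.6 CPM). In Nrf2 TKO these were Atg7 in replicate 3 (highest, 78.1 CPM), Calcoco1 in replicate 2 (highest, 60.1 CPM) and Sqstm1 in replicate 4 (highest, 975 CPM).

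The effect of the Atg5 deletion differed between livers with and without the Tsc1 deletion in 19 members, by edgeR's test of the difference itself. Of these 14 were lower and 5 higher, against 19.3% and 15.5% of all genes tested. It was higher in the Tsc1-deleted livers, in log2, for Becn1 (0.45), Ambra1 (0.39), Wipi1 (0.64), Map1lc3b (0.95) and Tecpr1 (0.91). It was lower for Atg101 (-1.22), Nrbf2 (-0.84), Wdr45 (-0.79), Atg3 (-1.21), Atg5 (-2.52), Atg7 (-0.47), Atg10 (-0.89), Gabarapl1 (-1.30), Snap29 (-0.63), Epg5 (-0.41), Plekhm1 (-0.49), Nbr1 (-0.45), Optn (-0.51) and Tax1bp1 (-0.47). With total counts alone the values of Atg7, Epg5, Plekhm1, Nbr1 and Tax1bp1 lay at or above 0. Of 22 alternatives each, the call of Ambra1 was lost in 20, DESeq2 and the replicate block among them, that of Atg10 in 12, of Epg5 in 11, and of Wipi1 and Plekhm1 in 6 each.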

How the results depend on the processing

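Counts of members called higher and lower, in the order Atg5 KO, TSC1 KO and DKO versus WT, DKO versus Atg5 KO and TSC1 KO, p62 TKO and Nrf2 TKO versus DKO, p62 TKO versus Nrf2 TKO, and the interaction, were 3 and 13, 8 and 3, 7 and 24, 6 and 17, 5 and 26, 12 and 6, 14 and 9, 4 and 3, and 5 and 14. With total counts alone they became 13 and 0, 10 and 1, 29 and 2, 26 and 1, 26 and 4, 2 and 20, 2 and 28, 9 and 1, and 14 and 4. With no filter on low counts, lower calls moved to 1 in TSC1 KO versus WT, 5 in Atg5 KO versus WT, 1 in p62 TKO versus Nrf2 TKO and 7 in the interaction. Over all genes, now 33019, lower calls went from 1205 to 695, 1794 to 1088, 1127 to 694 and 3066 to 2474. With only the groups compared, lower calls moved to 5 in TSC1 KO versus WT, 5 in Nrf2 TKO versus DKO and 1 in p62 TKO versus Nrf2 TKO, and higher calls to 0 in p62 TKO versus Nrf2 TKO and 3 in the interaction. These fits tested fewer genes. Over all of them these lower calls went from 1205 to 1356, 4633 to 3686 and 1127 to 594. The higher calls went from 1649 to 1083 and 2451 to 2276. Leaving out 1 library gave, in the same order, 1 to 2 and 5 to 13, 4 to 8 and 1 to 3, 6 to 8 and 22 to 24, 5 to 7 and 15 to 17, 4 to 5 and 22 to 26, 9 to 13 and 2 to 6, 13 to 21 and 7 to 10, 0 to 3 and 1 to 3, and 3 to 5 and 11 to 14. The lowest counts came without WT replicate 4 for lower calls in Atg5 KO, WT replicate 2 for higher calls in TSC1 KO, p62 TKO replicate 2 for lower calls versus DKO, and p62 TKO replicate 4 or Nrf2 TKO replicate 1 for higher calls between the triple knockouts. The cause was not tested beyond the setting itself. All 18 counts stayed within 1.5 times under DESeq2, its size factors and the replicate block. Same-numbered libraries showed no shared deviation over all genes (correlation -0.28 to 0.26 over 60 pairs, 7 over 0.1). Of the 24 libraries, 5 were closest to their own number. These values show no pairing by number, but cannot exclude one that touches only a part of the genes. With the block in edgeR, Atg13 in Atg5 KO versus WT (adjusted p = 0.051) and Vamp8 in TSC1 KO versus WT (adjusted p = 0.062) were among the calls lost. Of the 95 calls given full statistics by rule, none reversed. Apart from those of Atg5 and Sqstm1, they were chosen for a sign kept under the 3 scalings, so those scalings could not reverse them. Calls of other members did turn sign with total counts alone, as given above. Of the 95, 31 were lost with total counts alone, 13 with only the groups compared, 9 with no filter and none with DESeq2. The depth of 10494080 to 13057467 counts limits Atg10 most.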

Other observations

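The Nrf2 TKO libraries spread widely in several members, with replicates 1 and 2 both above or both below replicates 3 and 4. Besides Nrbf2 and Atg13, given in the report, Atg9a stood at 11.2, 10.04, 17.8 and 20.3 CPM in replicates 1 to 4, Tecpr1 at 33.3, 28.2, 20.1 and 18.4, Snap29 at 34.2, 32.04, 46.8 and 45.2 and Map1lc3b at 136, 135, 179 and 232. Gabarapl2 did not follow this division, at 41.8, 21.5, 42.8 and 21.2. The genes were picked after their values were seen, and the labels name no batch, so these are values only.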
